A study of Mus musculus with 8 samples.

Results

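The 10 genes described here encode parts of the Notch pathway and the transcription factors that specify the secretory cells of the gut: the receptors Notch1 and Notch2, the ligands Dll1, Dll4 and Jag1, the target Hes1, and the secretory factors Atoh1, Spdef, Gfi1 and Neurog3. They were chosen by gene name, and all 10 were found among the 40178 genes of the series. RNAseq was performed on intestinal epithelial cells (IECs), released from the gut wall with EDTA, from the colon and the ileum of 8-week-old mice. WTIEC mice (WT in the plots) carried DDX5(+/+), Vil1Cre(+) and DDX5ΔIEC mice (DDX5KO in the plots) carried DDX5(fl/fl), Vil1Cre(+), so both genotypes expressed Cre from the Vil1 promoter, which is active in the epithelium and not in the other cells of the gut wall. Each of the 4 groups had 2 libraries, and the 8 libraries came from 4 mice that each gave a colon and an ileum sample. The study describes these mice as littermates that were housed together, in 2 pairs of 1 mouse of each genotype, and the labels do not say which mice formed a pair.

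In the intestinal crypt, Delta and Jagged ligands on one cell activate Notch receptors on its neighbour, and the cleaved receptor enters the nucleus and switches on Hes1. Hes1 represses Atoh1, so cells with active Notch become absorptive, whereas cells that escape it express Atoh1 and take a secretory fate. Downstream of Atoh1, Gfi1 and Spdef favor the goblet and Paneth fates and Neurog3 the enteroendocrine fate.

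Between 11571061 and 22984283 reads were counted on genes per library. A set of 3 repeat-like genes took 19.5% of the counts in DDX5ΔIEC ileum replicate 2 and 0.226% in replicate 1, against 4.04% and 3.93% in WTIEC ileum. Leaving these 3 genes out moved no count of members called. Ddx5, the targeted gene, had 771 and 706 CPM (counts scaled to library depth) in WTIEC colon against 367 and 355 in DDX5ΔIEC colon, and 700.5 and 700.3 CPM in WTIEC ileum against 340 and 326 in DDX5ΔIEC ileum, so both knockout groups lay below their controls. The summed level of 7 epithelial markers was 10570 to 16330 CPM, that of 10 leukocyte markers 6.73 to 75.9 CPM, and those of 6 endothelial and 7 stromal markers 1.87 to 14.1 CPM. Colonocyte markers summed to at least 2995 CPM in every colon library and at most 186 CPM in every ileum library, as their tissue labels imply.

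Relative to their length, the 10 genes spanned a wide range of levels. In WTIEC colon, Spdef led with 48.5 ± 9.63 CPM per kilobase of exon (mean ± SD, n = 2 here and for the levels that follow), before Atoh1 with 33.7 ± 0.0327 and Hes1 with 33.1 ± 7.61. Spdef was above Atoh1 in both mice, whereas the ranges of Atoh1 and Hes1 overlapped. A second tier held Jag1 at 6.31 ± 0.841, Gfi1 at 5.07 ± 0.133, Notch1 at 3.40 ± 0.388, Dll1 at 3.16 ± 0.297, Dll4 at 2.88 ± 0.556 and Notch2 at 1.16 ± 0.0506 CPM per kilobase. Within it, the neighbours Notch1 and Dll1, and Dll1 and Dll4, had overlapping ranges. Neurog3 was last with 0.527 ± 0.0355 CPM per kilobase.

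The order differed in WTIEC ileum below the first 3 genes. Spdef, at 26.3 ± 0.270 CPM per kilobase, and Atoh1, at 26.0 ± 2.25, had overlapping ranges there, and Hes1 followed at 14.2 ± 0.715. Dll1, at 5.08 ± 0.0700, and Dll4, at 4.45 ± 0.811, came next, above Notch1 at 3.04 ± 0.0369. Jag1 stood in place 4 in the colon and 7 in the ileum, at 3.00 ± 0.428 CPM per kilobase, in a run of genes from Notch1 through Jag1, Gfi1 and Notch2 in which no pair of neighbours was separated. In both DDX5ΔIEC groups Spdef, Hes1 and Atoh1 again held the first 3 places and Neurog3 the last.

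**Figure D1:**
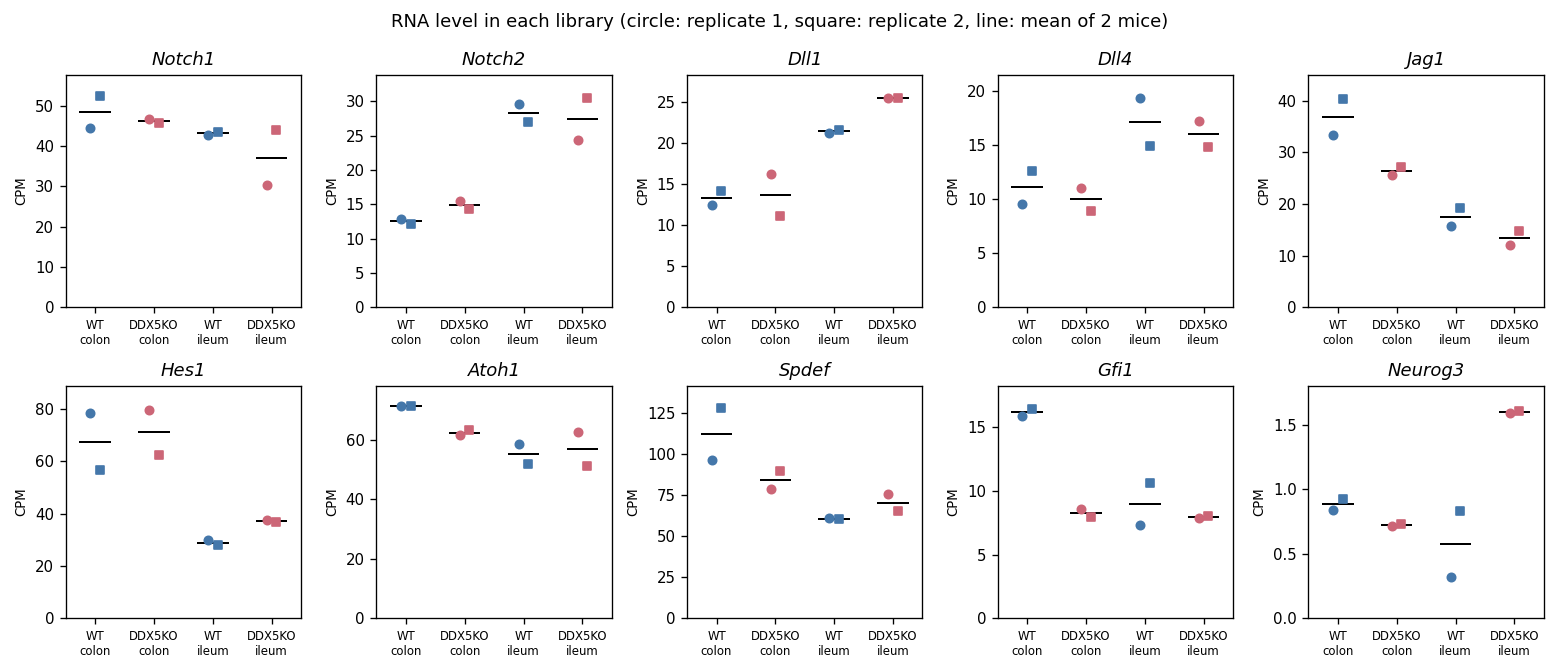
Level of each of the 10 genes in every library, in CPM (linear axis from 0), with 2 mice per group and a line at their mean. Gfi1 stands at 15.9 and 16.5 CPM in WTIEC colon and between 7.29 and 10.6 CPM in the other 6 libraries, and Hes1, Jag1 and Spdef are higher in the colon than in the ileum in all WTIEC libraries.

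The genotypes were compared within each tissue, to ask how the RNA of these genes differed in IECs of DDX5ΔIEC mice. In the colon, 0 of the 10 genes passed an adjusted p-value under 0.05 (edgeR quasi-likelihood test, Benjamini-Hochberg adjustment over all 15362 genes tested), and 0 of all genes tested did, 0.0%. At an unadjusted p under 0.05 there were 3 of the 10 members, against 12.0% of all genes tested. Only Gfi1 also passed the study's own criterion (a log2 value at or beyond ±0.5 and an unadjusted p under 0.05), which 6.64% of protein-coding genes passed and 4.01% passed as lower. The 2 DDX5ΔIEC libraries lay outside the range of the 2 WTIEC libraries for 6 of 10 members, 5 lower and 1 higher, against 44.6% of all genes tested (20.7% lower and 23.8% higher), so separation of 2 against 2 libraries was common and an exact permutation test of a single gene cannot give a two-sided p below 0.333. In these bulk samples, fewer cells of a type and less RNA per cell cannot be told apart.

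In the ileum, 0 of the 10 genes passed the adjusted threshold, against 98 of 14068 genes tested, or 0.697%. At an unadjusted p under 0.05 there were again 3 of 10 members, against 12.3% of all genes. Neurog3 was the only member past the study's criterion, which 6.61% of protein-coding genes passed and 3.78% passed as higher. The libraries of the genotypes did not overlap for 5 of 10 members, 4 higher and 1 lower in DDX5ΔIEC, against 39.5% of all genes (18.7% and 20.8%). All 10 members passed the filter on low counts in both tissues.

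**Figure D2:**
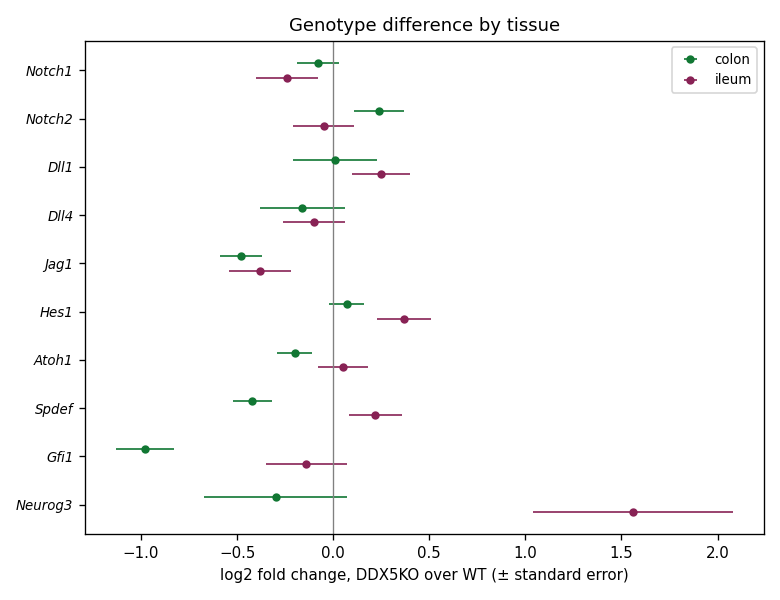
Log2 fold change of DDX5ΔIEC over WTIEC for each gene in the colon (green) and the ileum (purple), as points with standard errors from edgeR. Gfi1 in the colon, at -0.98, and Neurog3 in the ileum, at 1.56, lie farthest from 0, and Jag1 is below 0 in both tissues.

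Notch1, the receptor that carries most of the Notch signal in the crypt, was at 44.5 and 52.3 CPM in WTIEC colon, 46.6 and 45.6 CPM in DDX5ΔIEC colon, 42.8 and 43.6 CPM in WTIEC ileum, and 30.3 and 43.9 CPM in DDX5ΔIEC ileum. The genotypes overlapped in both tissues, and DDX5ΔIEC ileum replicate 1 was the lowest of the 8 libraries. The genotypes differed by a log2 fold change of -0.08 ± 0.11 (SE) in the colon and -0.24 ± 0.16 in the ileum. Notch2, which acts alongside Notch1 in the crypt, was at 12.9 and 12.2 CPM in WTIEC colon, 15.5 and 14.4 CPM in DDX5ΔIEC colon, 29.5 and 27.0 CPM in WTIEC ileum, and 24.4 and 30.4 CPM in DDX5ΔIEC ileum. Every ileum library was above every colon library, and the genotypes were separated only in the colon. There the log2 fold change of 0.24 ± 0.13 had an edgeR unadjusted p of 0.131.

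Dll1 and Dll4 are the Delta ligands that secretory cells present to their neighbours. Dll1 was at 12.5 and 14.2 CPM in WTIEC colon, 16.3 and 11.2 CPM in DDX5ΔIEC colon, 21.2 and 21.6 CPM in WTIEC ileum, and 25.5 and 25.5 CPM in DDX5ΔIEC ileum. Its genotypes overlapped in the colon and were separated in the ileum, where the log2 fold change was 0.25 ± 0.15 (edgeR unadjusted p = 0.122). Dll4 was at 9.56 and 12.6 CPM in WTIEC colon, 11.0 and 8.93 CPM in DDX5ΔIEC colon, 19.3 and 14.9 CPM in WTIEC ileum, and 17.2 and 14.8 CPM in DDX5ΔIEC ileum. Its genotypes overlapped in both tissues, with log2 fold changes of -0.16 ± 0.22 and -0.10 ± 0.16.

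Jag1, the Jagged ligand, was at 33.3 and 40.2 CPM in WTIEC colon and at 25.6 and 27.2 CPM in DDX5ΔIEC colon. In the ileum it was at 15.7 and 19.2 CPM in WTIEC and at 12.0 and 14.8 CPM in DDX5ΔIEC. It was the only member whose DDX5ΔIEC libraries lay below both WTIEC libraries in both tissues. The log2 fold change of Jag1 was -0.48 ± 0.11 in the colon (edgeR quasi-likelihood test, unadjusted p = 0.00605, Benjamini-Hochberg adjusted p = 0.276), just inside the 0.5 of the study's criterion, and -0.38 ± 0.16 in the ileum (unadjusted p = 0.0381, adjusted p = 0.372). Within a library, the ratio of Jag1 to Dll1 counts, which does not depend on library scaling, was 2.68 and 2.83 in WTIEC colon against 1.57 and 2.44 in DDX5ΔIEC colon. In the ileum it was 0.739 and 0.888 in WTIEC against 0.471 and 0.580 in DDX5ΔIEC, so it was lower in DDX5ΔIEC in both tissues.

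Hes1, the repressor switched on by active Notch, was at 78.5 and 56.6 CPM in WTIEC colon and at 79.8 and 62.6 CPM in DDX5ΔIEC colon. In the ileum it was at 30.0 and 27.9 CPM in WTIEC and at 37.5 and 36.9 CPM in DDX5ΔIEC. The colon libraries interleaved by genotype, with replicate 1 above replicate 2 in each, whereas both DDX5ΔIEC ileum libraries were above both controls. For Hes1 the log2 fold change was 0.07 ± 0.09 in colonic IECs and 0.37 ± 0.14 in the ileum (edgeR quasi-likelihood test, unadjusted p = 0.0263, Benjamini-Hochberg adjusted p = 0.326). The ratio of Hes1 to Atoh1 counts was 0.511 and 0.538 in WTIEC ileum and 0.598 and 0.719 in DDX5ΔIEC ileum.

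Atoh1, the factor that commits cells to the secretory lineage, varied least between tissues and genotypes among the secretory factors. It was at 71.5 and 71.4 CPM in WTIEC colon, 61.7 and 63.4 CPM in DDX5ΔIEC colon, 58.6 and 51.8 CPM in WTIEC ileum, and 62.7 and 51.4 CPM in DDX5ΔIEC ileum. The DDX5ΔIEC colon libraries were below both controls, and the ileum libraries overlapped. For Atoh1 the log2 fold change was -0.20 ± 0.09 in the colon (edgeR unadjusted p = 0.0768) and 0.05 ± 0.13 in the ileum.

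The promoters of the 10 genes were searched for the letters that Hes proteins and the Notch effector RBPJ are known to recognize. RefSeq promoters on GRCm38.p6, from 250 bases before to 50 bases after the start site, were found for 9 of the 10 members, with 11 promoters in all, and Hes1 had no entry. The Hes letters CACGCG, sought on both strands, were found in 6 of the 11 promoters, those of 6 of the 9 genes, against 9.27% of all 32851 promoters. The median GC content was 58% in the promoters of the members and 52.7% in all promoters. Atoh1 held 4 matches, Jag1 2, and Notch2, Dll1, Dll4 and Neurog3 1 each. The letters CACGTG and CACGAG, which the same proteins can bind, were in none of the 11 promoters, against 7.15% and 6.47% of all promoters. The RBPJ letters TGGGAA were found in Spdef alone, against 25.6% of all promoters. The E-box letters CAGCTG, of a kind that Atoh1 and other bHLH factors bind, were in promoters of Dll1, Jag1 and Neurog3, against 16.3% of all promoters, and CAGATG was in none of the 11, against 17.2%. The promoters of Gfi1 and Notch1 held no match to any of these letters. The 30 bases around 4 of the matches are shown 5′ to 3′ on the strand of the gene, with the searched letters, or their complement on the other strand, in capitals: Atoh1 at chr6:64728982-64729011 and chr6:64729018-64729047 (both +), Neurog3 at chr10:62132957-62132986 (+, read on the other strand), and Spdef at chr17:27728956-27728985 (-).
Atoh1, position -131 from the start site: attggctcctcgCACGCGcctgcccgcccc
Atoh1, position -95: tgactgggcagaCACGCGactggcgcaagg
Neurog3, position -121: gaggagcgggctCGCGTGgcgcagcccctg
Spdef, position -22: gattacttataaTGGGAAagctggcgggct
These matches describe the letters only, and no binding was measured.

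Gfi1, which acts downstream of Atoh1 to hold cells in the goblet and Paneth fates against the enteroendocrine fate, gave the largest difference of any member in the colon. It had 302 and 374 raw counts in WTIEC colon and 156 and 174 in DDX5ΔIEC colon, which is 15.9 and 16.5 CPM against 8.61 and 7.93 CPM. In the ileum it was at 7.29 and 10.6 CPM in WTIEC and at 7.87 and 8.03 CPM in DDX5ΔIEC. Both WTIEC colon libraries stood above the other 6, and the genotypes overlapped in the ileum. The log2 fold change in the colon was -0.98 ± 0.15, a fold of 0.507 (edgeR quasi-likelihood test, unadjusted p = 0.00131, Benjamini-Hochberg adjusted p = 0.229), and in the ileum -0.14 ± 0.21. In the colon it stayed past the study's criterion in 8 of 8 alternative fits, with adjusted p-values from 0.00224 to 0.279, and in all 4 fits that left out 1 library, with log2 fold changes from -1.03 to -0.91.

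The difference in Gfi1 was also seen relative to Atoh1. The ratio of Gfi1 to Atoh1 counts was 0.222 and 0.230 in WTIEC colon and 0.140 and 0.125 in DDX5ΔIEC colon, without overlap. In the ileum the ratio was 0.125 and 0.205 in WTIEC and 0.126 and 0.156 in DDX5ΔIEC, with overlap. Gfi1 is also expressed by blood cells, and the 10 leukocyte markers summed to 31.2 and 24.8 CPM in WTIEC colon against 6.73 and 14.2 CPM in DDX5ΔIEC colon, where 1 of the 10 was at 0 in both libraries. Of the 4 leukocyte markers tested in the colon, 2 passed the study's criterion as lower and 0 as higher, against 4.01% of protein-coding genes as lower. Their median log2 fold change was -1.35. In the ileum the 10 markers summed to 60.5 and 75.9 CPM in WTIEC and 56.5 and 54.1 CPM in DDX5ΔIEC. The 7 Paneth cell markers summed to 1397 and 1584 CPM in WTIEC colon and 219 and 428 CPM in DDX5ΔIEC colon, most of which was Ang4, at 1312 and 1502 CPM against 200 and 387 CPM (log2 fold change -2.35 ± 0.20). Of these 7 markers, 3 passed the study's criterion as lower, against 4.01% of protein-coding genes, and 2 were too low for a test. The defining markers Lyz1 (0.21 ± 0.59) and Mmp7 (-0.29 ± 0.40) overlapped between the genotypes. In the colon libraries Lyz1 was at only 0.456 to 2.10 CPM and Mmp7 at 0.773 to 1.73 CPM, so the colon sum was not a measure of Paneth cells. The 6 tuft cell markers summed to 70.9 and 77.0 CPM against 26.2 and 52.4 CPM, and 4 of the 6 passed the criterion as lower and 0 as higher. The part of the cells that express these markers in the Gfi1 value was not tested.

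Spdef, which drives the maturation of goblet and Paneth cells, was at 96.2 and 128 CPM in WTIEC colon and at 78.4 and 89.3 CPM in DDX5ΔIEC colon. In the ileum it was at 61.0 and 60.1 CPM in WTIEC and at 75.6 and 65.1 CPM in DDX5ΔIEC. The genotypes were thus separated in both tissues, in opposite directions. The log2 fold change was -0.42 ± 0.10 in the colon (edgeR quasi-likelihood test, unadjusted p = 0.00800, Benjamini-Hochberg adjusted p = 0.301) and 0.22 ± 0.14 in the ileum (unadjusted p = 0.139). The colon value was -0.20 without WTIEC colon replicate 2 and -0.61 without WTIEC colon replicate 1. The 6 goblet cell markers summed to 45860 and 50930 CPM in WTIEC colon and 27220 and 40950 CPM in DDX5ΔIEC colon, against 26680 and 22860 CPM in WTIEC ileum and 31900 and 27690 CPM in DDX5ΔIEC ileum. In the colon Clca1 (-1.57 ± 0.18) and Fcgbp (-0.61 ± 0.12) passed the study's criterion as lower, against 4.01% of protein-coding genes, and the other 4 markers did not pass. In the ileum 2 of the 6 passed, Tff3 (0.51 ± 0.21) and Zg16 (0.77 ± 0.21), both as higher, against 3.78% of protein-coding genes. The part of these markers in the Spdef values was not tested. Muc2, the main goblet cell mucin, was at 10680 and 13810 CPM in WTIEC colon and at 8832 and 19240 CPM in DDX5ΔIEC colon, with overlap.

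Neurog3, the factor that starts enteroendocrine differentiation, was the rarest transcript of the 10. It had 16 and 21 raw counts in WTIEC colon, 13 and 16 in DDX5ΔIEC colon, 7 and 12 in WTIEC ileum, and 17 and 15 in DDX5ΔIEC ileum. Scaled to depth, these were 0.840 and 0.923 CPM, 0.717 and 0.729 CPM, 0.323 and 0.833 CPM, and 1.59 and 1.61 CPM. Both DDX5ΔIEC ileum libraries were above the other 6, and WTIEC ileum replicate 1 was the lowest. The log2 fold change in the ileum was 1.56 ± 0.52, a fold of 2.96 (edgeR quasi-likelihood test, unadjusted p = 0.0116, Benjamini-Hochberg adjusted p = 0.245), and in the colon -0.30 ± 0.37. On these few counts the ileum value was 0.93 without WTIEC ileum replicate 1 and 2.28 without WTIEC ileum replicate 2, and it was past the study's criterion in 3 of the 4 fits that left out 1 library. With all libraries it passed in 6 of 8 alternative fits, and in neither DESeq2 fit. Both DDX5ΔIEC ileum libraries and WTIEC ileum replicate 2 reached the level that the filter on low counts asks of 2 libraries, and WTIEC ileum replicate 1 did not.

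The 8 enteroendocrine markers summed to 94.7 and 93.0 CPM in WTIEC ileum and 139 and 119 CPM in DDX5ΔIEC ileum. Of these 8 markers, 1 passed the adjusted threshold in the ileum, the granule protein gene Chga (log2 fold change 0.92 ± 0.16, edgeR quasi-likelihood test, Benjamini-Hochberg adjusted p = 0.0303), and 4 passed the study's criterion, all as higher. Of all genes tested in the ileum 0.697% passed the adjusted threshold, and 3.78% of protein-coding genes passed the criterion as higher. In the colon the enteroendocrine sums were 172 and 180 CPM in WTIEC and 166 and 221 CPM in DDX5ΔIEC, with overlap, and Chga had a log2 fold change of 0.09 ± 0.14. There too 4 of the 8 passed the criterion as higher, namely Cck (1.51 ± 0.41), Scg2 (1.43 ± 0.29), Gcg (0.59 ± 0.10) and Pyy (0.52 ± 0.15), and Pcsk1 passed as lower (-0.77 ± 0.24). Cck rested on 7 and 8 raw counts in WTIEC colon and 18 and 24 in DDX5ΔIEC colon. Only its DDX5ΔIEC libraries reached the level of the filter on low counts, so it entered the test through the group where it was higher. The share of protein-coding genes past the criterion in the colon, in either direction, was 6.64%.

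**Figure D3:**
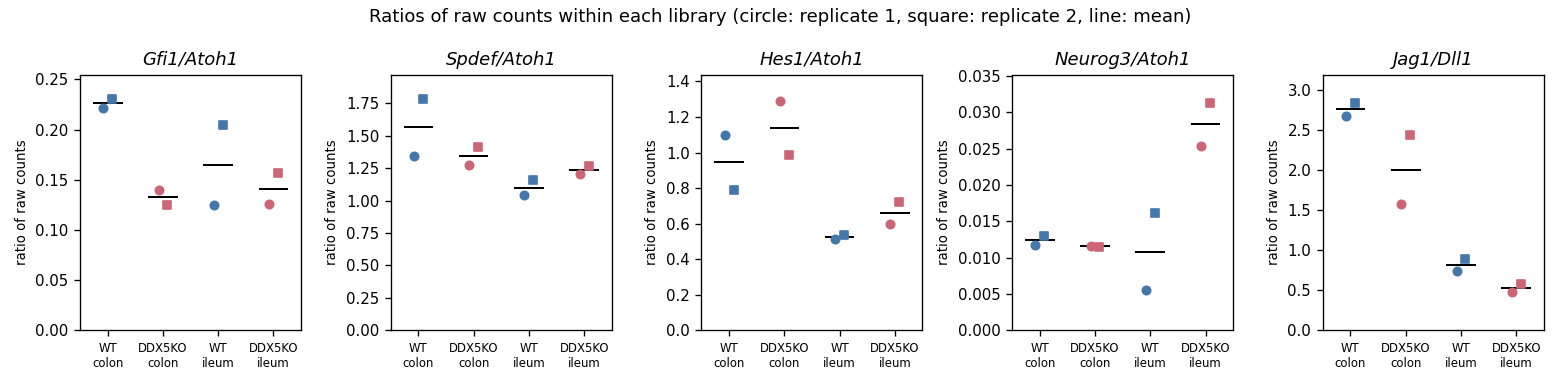
Ratios of raw counts of pairs of members within each library, which need no scaling between libraries (linear axes from 0), with 2 mice per group and a line at their mean. Gfi1 over Atoh1 falls into 0.222 and 0.230 in WTIEC colon against 0.140 and 0.125 in DDX5ΔIEC colon, and Jag1 over Dll1 is lower in DDX5ΔIEC in both tissues.

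Whether the effect of genotype differed between the tissues was tested as an interaction over all 8 libraries. None of the 10 members passed the adjusted threshold, against 2 of 16178 genes, 0.0124%, and at an unadjusted p under 0.05 there were 3 of 10, against 4.67% of all genes. These 3 were the secretory factors Spdef, Gfi1 and Neurog3, each with a higher DDX5ΔIEC effect in the ileum than in the colon. The difference of the 2 effects on the log2 scale was 0.63 ± 0.21 for Spdef (edgeR quasi-likelihood test, unadjusted p = 0.0177), 0.81 ± 0.28 for Gfi1 (unadjusted p = 0.0181) and 1.83 ± 0.64 for Neurog3 (unadjusted p = 0.0203). All 3 had a Benjamini-Hochberg adjusted p of 1.0. Atoh1, which stands above them, had a difference of 0.24 ± 0.17 (unadjusted p = 0.203), and Hes1 one of 0.29 ± 0.25 (unadjusted p = 0.282).

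The tissues were then compared within each genotype. In WTIEC mice, 8 of the 10 members differed between ileum and colon at an adjusted p under 0.05 (edgeR quasi-likelihood test, Benjamini-Hochberg adjustment), against 34.2% of all 16178 genes tested, with 3 higher and 5 lower in the ileum where 17.4% and 16.8% of all genes were. The libraries of the 2 tissues did not overlap for 10 of 10 members, against 72.8% of all genes. The receptor Notch2 and both Delta ligands rose from colon to ileum, whereas Jag1, Hes1 and the secretory factors Spdef, Gfi1 and Atoh1 fell.

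Notch2 was 2.26-fold higher in WTIEC ileum (log2 fold change 1.17 ± 0.14, edgeR quasi-likelihood test, adjusted p = 0.000398), Dll1 1.61-fold higher (0.68 ± 0.18, adjusted p = 0.0183) and Dll4 1.55-fold higher (0.63 ± 0.20, adjusted p = 0.0402). The ligand Jag1 went the other way, with a log2 fold change of -1.08 ± 0.16 (edgeR adjusted p = 0.00118), so that its ratio to Dll1 counts was 2.68 and 2.83 in WTIEC colon and 0.739 and 0.888 in WTIEC ileum. Hes1 fell most, by 1.22 on the log2 scale (SE 0.18, edgeR adjusted p = 0.00110). Spdef had a log2 fold change of -0.89 ± 0.15 (edgeR adjusted p = 0.00254), Gfi1 one of -0.86 ± 0.19 (adjusted p = 0.00816) and Atoh1 one of -0.37 ± 0.12 (adjusted p = 0.0458). Notch1 (-0.16 ± 0.17, edgeR adjusted p = 0.494) and Neurog3 (-0.69 ± 0.46, adjusted p = 0.291) did not pass. The calls of Notch2, Jag1, Hes1 and Spdef held in 10 of 10 alternative fits, that of Gfi1 in 8, Dll4 in 7, Dll1 in 6 and Atoh1 in 3, with the adjusted p of Atoh1 between 0.0396 and 0.255.

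In DDX5ΔIEC mice, 5 of the 10 members differed between the tissues, against 35.3% of all genes, with 3 higher and 2 lower in the ileum where 18.0% and 17.3% of all genes were. The libraries did not overlap for 8 of 10 members, against 66.6% of all genes. Notch2 (log2 fold change 0.88 ± 0.14, edgeR quasi-likelihood test, adjusted p = 0.00194), Dll1 (0.90 ± 0.18, adjusted p = 0.00566) and Dll4 (0.68 ± 0.21, adjusted p = 0.0331) again rose, and Jag1 (-0.98 ± 0.17, adjusted p = 0.00246) and Hes1 (-0.93 ± 0.18, adjusted p = 0.00426) fell. The secretory factors gave no call here: the log2 fold change was -0.25 ± 0.15 for Spdef (edgeR adjusted p = 0.234), -0.06 ± 0.20 for Gfi1 (adjusted p = 0.850), -0.13 ± 0.12 for Atoh1 (adjusted p = 0.440) and 1.14 ± 0.44 for Neurog3 (adjusted p = 0.0793). The difference between the genotypes in these tissue effects is the interaction given above, which no member passed after adjustment.

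**Figure D4:**
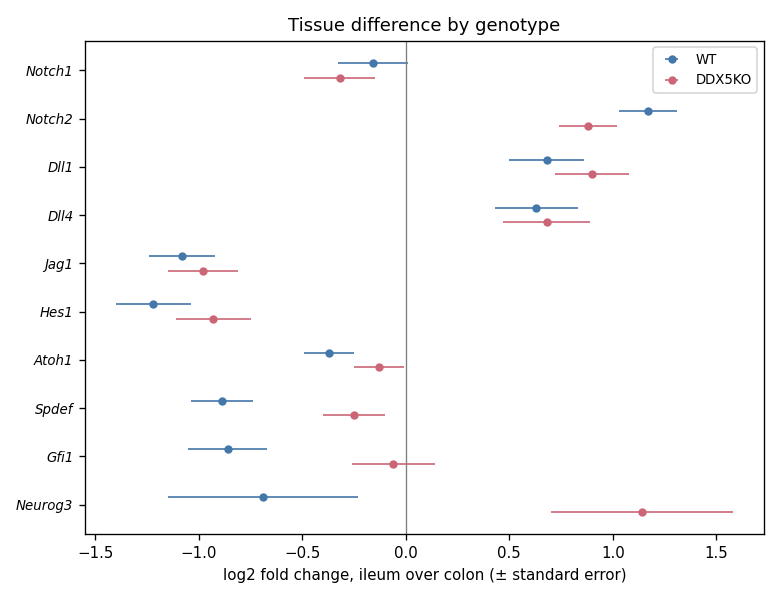
Log2 fold change of ileum over colon for each gene in WTIEC (blue) and DDX5ΔIEC (red) mice, as points with standard errors from edgeR. Notch2, Dll1 and Dll4 are above 0 and Jag1 and Hes1 below 0 in both genotypes, while Spdef and Gfi1 are at -0.89 and -0.86 in WTIEC and at -0.25 and -0.06 in DDX5ΔIEC.

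The cell types that make and receive these signals differed between the tissues as well. The 5 stem cell markers summed to 70.2 to 78.3 CPM in the 4 colon libraries and 741 to 954 CPM in the 4 ileum libraries. Most of the ileum sum was Olfm4, at 576 to 788 CPM. In WTIEC mice 4 of the 5 were called higher in the ileum by edgeR's adjusted p, against 17.4% of all genes. Besides Olfm4 these were Lgr5 (log2 fold change 1.65 ± 0.29), Axin2 (1.38 ± 0.15) and Smoc2 (0.76 ± 0.13), while Ascl2 overlapped (-0.20 ± 0.34). The 7 Paneth cell markers summed to at most 1584 CPM in the colon, most of it Ang4, and at least 9465 CPM in the ileum. Of the 6 goblet cell markers, 3 were called lower and 1 higher in WTIEC ileum. The 8 enteroendocrine markers held 4 called lower and 1 higher, and all 6 tuft cell markers were called higher. Among all genes 16.8% were called lower there. The part of this makeup in the tissue differences of the members was not tested.

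The other genes of the pathway were followed in a list of 59 Notch pathway genes, which includes 6 of the members. In the colon, 3 of the 48 list genes tested passed the study's criterion, or 6.25%, against 6.64% of protein-coding genes, and the median log2 fold change of the list was -0.02, against 0.00 over all genes tested. Dtx1, a Deltex protein that binds the receptor's inner domain, had a log2 fold change of -1.86 ± 0.46, with 29 and 24 raw counts in WTIEC and 5 and 9 in DDX5ΔIEC. Maml2, a Mastermind coactivator of the Notch complex, had -1.75 ± 0.49, with 16 and 16 counts against 4 and 5. Only the WTIEC libraries of Dtx1 and Maml2 reached the level of the filter on low counts. Both genes thus entered the test through the group where they were higher. Dlk1, a Delta-like protein without the usual receptor-binding domain, had 1.67 ± 0.30, with 43 and 81 counts against 189 and 181. Dtx1 passed in 3 of the 4 fits that left out 1 library. In the ileum, 2 of 47 passed, or 4.26%, against 6.61% of protein-coding genes. Maml3, a second Mastermind coactivator, had a log2 fold change of -0.75 ± 0.20, which was -0.40 without DDX5ΔIEC ileum replicate 1 and -1.11 without DDX5ΔIEC ileum replicate 2, and it passed in 2 of the 4 fits that left out 1 library. Jag2, a second Jagged ligand, had 0.52 ± 0.22, and it passed in 0 of those 4 fits and in 4 of 8 alternative fits. None of these passed edgeR's Benjamini-Hochberg adjusted threshold, and Maml2 did not pass the criterion in the ileum (-0.68 ± 0.50). Genes of the list with an unadjusted p under 0.05 numbered 6 of 48 in the colon, against 12.0% of all genes tested, and 7 of 47 for the ileum, against 12.3%.

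The list of 31 secretory lineage factors, 4 of them members, had a larger share past the criterion. It was chosen with earlier results of these data known, so the share is a description only. In the colon 5 of 28 tested genes passed, 17.9%, with a median log2 fold change of -0.12, and in the ileum 9 of 26, 34.6%, with a median of 0.10, against 0.00 over all genes in each tissue and 6.64% and 6.61% of protein-coding genes past the criterion. None passed edgeR's Benjamini-Hochberg adjusted threshold in either tissue, and 8 in the colon and 11 in the ileum had an unadjusted p under 0.05. DESeq2 with the replicate block left 2 past the criterion in each tissue.

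Tuft cell factors were lower in DDX5ΔIEC. Pou2f3, the factor that specifies tuft cells, had a log2 fold change of -1.52 ± 0.42 in the colon and -0.63 ± 0.18 in the ileum. Spib, which tuft and M cells express and B cells too, had -0.75 ± 0.20 and -0.69 ± 0.16. Gfi1b, a relative of Gfi1 found in tuft cells, had -1.10 ± 0.40 in the ileum and was too low for a test in the colon. These values all passed the study's criterion. With 1 library left out, Spib passed in 4 of 4 colon fits and 3 of 4 ileum fits. Gfi1b passed in 2 of 4, and lay between -1.37 without DDX5ΔIEC ileum replicate 2 and -0.83 without DDX5ΔIEC ileum replicate 1. The tuft markers, which share no gene with this list, summed to 334 and 503 CPM in WTIEC ileum and 222 and 274 CPM in DDX5ΔIEC ileum. Of these 6 markers, 2 passed edgeR's adjusted threshold in the ileum as lower, against 0.697% of all genes tested. They were Gnat3 (log2 fold change -1.51 ± 0.24) and Dclk1 (-0.83 ± 0.14). The criterion was passed there by 4 of the 6, all as lower, against 6.61% of protein-coding genes in either direction. Pou2f3 in the colon was -0.90 without DDX5ΔIEC replicate 1 and -2.44 without DDX5ΔIEC replicate 2, and in the ileum it was -0.32 without DDX5ΔIEC replicate 1 or without WTIEC replicate 2 and -0.97 without DDX5ΔIEC replicate 2. With all libraries, Pou2f3 passed the criterion in 7 of 8 alternative fits in the colon and only 4 of 8 in the ileum. Spib passed in 7 and 8 of these.

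Bhlha15, also named Mist1, which builds the secretory apparatus of mature secretory cells, passed the criterion in both tissues in opposite directions. It was at 6.30 and 8.14 CPM in WTIEC colon and 3.42 and 3.01 CPM in DDX5ΔIEC colon, and at 10.3 and 10.2 CPM in WTIEC ileum and 15.6 and 15.2 CPM in DDX5ΔIEC ileum. No library overlapped between the genotypes in either tissue. Its log2 fold change was -1.17 ± 0.24 in the colon and 0.59 ± 0.17 in the ileum.

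Enteroendocrine factors past the criterion went both ways. Insm1, a factor downstream of Neurog3, had a log2 fold change of 1.02 ± 0.41 in the ileum, where its 4 libraries overlapped, and 0.35 ± 0.29 in the colon. The ileum value of Insm1 was 0.30 without DDX5ΔIEC ileum replicate 2 and 1.65 without DDX5ΔIEC ileum replicate 1, and it passed the criterion in 2 of the 4 fits that left out 1 library and in 5 of 8 alternative fits. Isl1, a factor of hormone-producing cells, had 0.93 ± 0.35 in the colon and -0.44 ± 0.51 in the ileum, on 6 to 23 raw counts in the ileum, and its colon value was 0.55 without DDX5ΔIEC colon replicate 1 and 1.32 without DDX5ΔIEC colon replicate 2. Rfx3, a factor of endocrine and ciliated cells, had -0.70 ± 0.19 in the ileum, with -0.35 without DDX5ΔIEC ileum replicate 1 and -1.07 without DDX5ΔIEC ileum replicate 2. St18 had -0.67 ± 0.22, with -0.33 without WTIEC ileum replicate 2 and -0.99 without WTIEC ileum replicate 1. Isl1, Rfx3 and St18 each passed the criterion in 1 of the 4 fits that left out 1 library. The goblet cell factor Foxa2 had 0.75 ± 0.27 in the ileum, where it passed in 2 of 4 such fits, and 0.18 ± 0.19 in the colon.

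**Figure D5:**
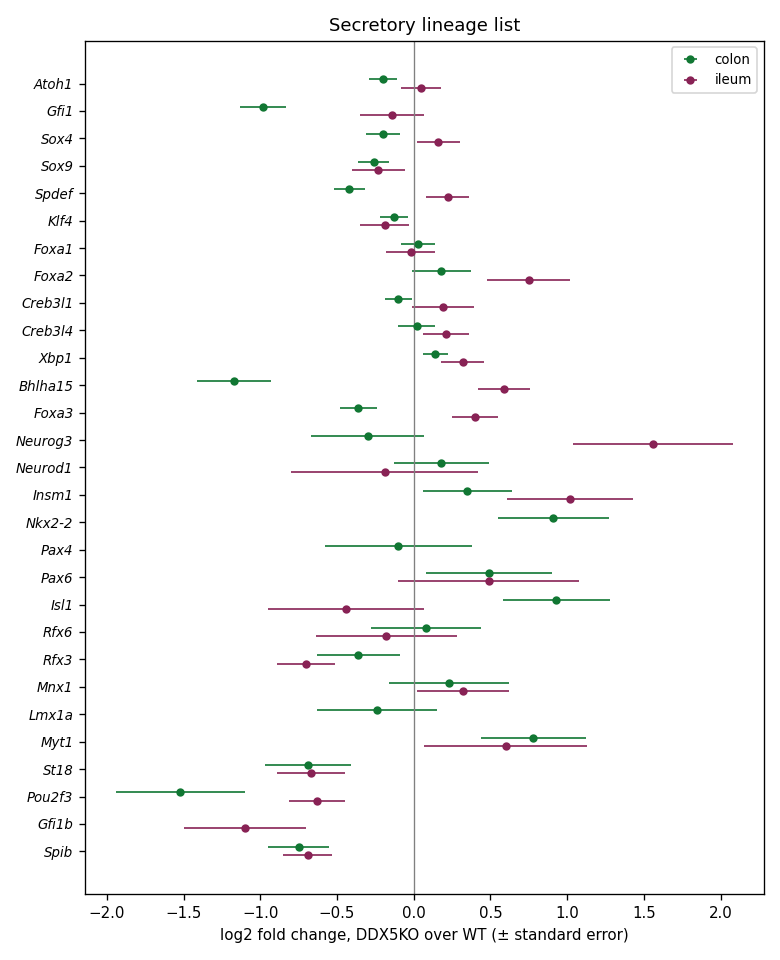
Log2 fold change of DDX5ΔIEC over WTIEC, with standard errors from edgeR, for the genes of the secretory lineage list that were tested in the colon (green) or the ileum (purple). Gfi1, Bhlha15 and Pou2f3 lie at -0.98, -1.17 and -1.52 in the colon, and Neurog3 and Insm1 at 1.56 and 1.02 in the ileum.

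Between the tissues, 22 of 49 tested genes of the Notch pathway list were called in WTIEC mice, 12 higher and 10 lower in the ileum, or 44.9%, against 34.2% of all genes. In DDX5ΔIEC mice 22 of 49 were called as well, 15 higher and 7 lower, against 35.3%. Dlk1 was called lower in the ileum of both genotypes, with 43 to 189 raw counts per colon library and 2 to 3 per ileum library. The Hes family member Hes2 was higher in the ileum of both genotypes (2.27 ± 0.45 and 2.22 ± 0.45). In WTIEC mice the protease gene Adam10, whose product makes the first cut in an activated receptor, was higher in the ileum (1.13 ± 0.11), as was the coactivator Ep300 (1.06 ± 0.18), and Dtx3 was lower (-1.11 ± 0.31). In DDX5ΔIEC mice the 8 largest changes also held Dtx1 (2.77 ± 0.56), Maml2 (1.89 ± 0.53), the glycosyltransferase Rfng (1.32 ± 0.13), Dtx3l (1.02 ± 0.19) and Maml3 (-1.48 ± 0.22).

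Of the 28 tested secretory lineage factors, 12 were called between the tissues in WTIEC mice, 4 higher and 8 lower in the ileum, or 42.9%, against 34.2% of all genes. In DDX5ΔIEC mice 11 were called, 5 higher and 6 lower, or 39.3%, near the 35.3% of all genes. Among all genes, 17.4% were called higher and 16.8% lower in WTIEC ileum, and 18.0% and 17.3% in DDX5ΔIEC ileum. The goblet and Paneth factors held 6 of the 8 that were lower in WTIEC, among them Foxa2 (log2 fold change -2.86 ± 0.22), Creb3l1 (-1.34 ± 0.22) and Foxa3 (-0.95 ± 0.13). All 3 tuft factors were higher in WTIEC ileum: Pou2f3 (2.81 ± 0.38), Gfi1b (2.41 ± 0.36) and Spib (2.29 ± 0.19). In DDX5ΔIEC mice the 8 largest were the tuft factors Pou2f3 (3.61 ± 0.44), Gfi1b (2.68 ± 0.48) and Spib (2.31 ± 0.20), Bhlha15 (2.26 ± 0.19), Mnx1 (1.54 ± 0.41), Foxa2 (-2.34 ± 0.22), Isl1 (-1.57 ± 0.42) and Creb3l1 (-1.02 ± 0.22). Mnx1, a factor of serotonin-producing cells, was higher in WTIEC ileum too (1.53 ± 0.41).

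Finally, the genes whose levels ran most like Hes1 and Atoh1 over the 8 libraries were listed among 10142 protein-coding genes, as a description of libraries that share mice and tissues. For Hes1 these were Svbp, Plgrkt and Surf2, with Pearson correlations of log2 CPM of 0.99, 0.988 and 0.987, and for Atoh1 they were Syngr2, Cln6 and Tcea3, with 0.976, 0.976 and 0.972. Svbp, the closest to Hes1, was at 11.1, 8.98, 11.8 and 9.48 CPM in the colon libraries and between 5.72 and 6.96 CPM in the ileum libraries, so it shared the higher colon level and the higher replicate 1 within the colon. Among the members, Atoh1 had a correlation of 0.878 with Spdef and 0.617 with Gfi1, and Dll1 one of 0.899 with Notch2.

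On the GRCm38 assembly, the members lie apart from each other on 7 chromosomes. Notch1 (chr2:26457903-26516663), Dll4 (chr2:119325784-119335962) and Jag1 (chr2:137081456-137116644) are on chromosome 2, and Dll1 (chr17:15367354-15376872) and Spdef (chr17:27714352-27728955) on chromosome 17. Gfi1 is at chr5:107716657-107726036, Atoh1 at chr6:64729125-64731245, Hes1 at chr16:30064384-30067796, Notch2 at chr3:98013527-98150361 and Neurog3 at chr10:62133090-62134763. Exons of Jag1, Hes1, Atoh1 and Spdef overlapped no exon of another gene. Exons of a gene on the opposite strand shared up to 1068 bases with Notch1 (0610009E02Rik and Gm13568), 867 with Dll1 (A930024N18Rik), 214 with Dll4 (Gm14207), 101 with Gfi1 (A430072P03Rik) and 273 with Neurog3 (Fam241b). The strand setting of the counting is not given in the sources used here, so reads from these stretches may be uncertain. Notch2 shared 541 bases with Gm42820 on its own strand, where reads are uncertain under any strand setting.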

How the data were processed

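RNA of EDTA-released IECs was ribodepleted and sequenced in 8 libraries as 100-base paired-end reads. The authors aligned with STAR 2.6.1a to mm10 and counted reads per gene with featureCounts on GENCODE annotation; the deposited tables, 1 per tissue, hold these raw counts. They also hold a normalized signal that the authors made with DESeq2 1.18.1 size factors, and the authors' own genotype comparison as log2 fold change with its error, a Wald score and p-values. Per the file headers these deposited columns were recognized, and none was used in a test. Groups follow the sample labels, and 0 per-sample columns lacked a sample. The 8 columns of normalized values were used only to tie libraries to mice: they match 4 mice in the study's supplementary DDX gene table, with same-numbered colon and ileum libraries from the same mouse.

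Here, genes were filtered by edgeR's filterByExpr (minimum count 10), scaled by TMM and tested by edgeR 4.0.16 (quasi-likelihood, R 4.3.3), with Benjamini-Hochberg adjustment at 0.05. Genotypes were compared within each tissue with the replicate number as a block, after the study's covariate for harvest; which mice shared a harvest is not given in the sources used here. Tissues and the interaction were fitted over all 8 libraries without a block. Deviations of same-numbered colon and ileum libraries correlated at 0.181 (WTIEC) and 0.21 (DDX5ΔIEC) over genes. DESeq2 1.42.0, other scalings and filters, fits with or without the block, all 8 libraries in 1 fit, and each library left out were tried. CPM used TMM over 8 libraries, exon lengths were those deposited with the counts, and positions came from a GRCm38 GENCODE release. The fits were also run on simulated data, in which libraries were independent and all genes had the same spread. That setting differs from these data, so it does not show how the fits perform here. Total counts of 11571061 to 22984283 per library set the precision. The p-values rest on 2 mice per group and on a spread that edgeR moderates over all genes. In the genotype fits it is the spread left after the replicate block. The tissue and interaction fits treat the colon and ileum samples of a mouse as independent.

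The members, lists, marker sets and motif searches were chosen with earlier results of these data known. Named genes are the members, list genes called by adjusted p or, between genotypes, by the study's criterion (at most the 8 largest per list between tissues), and the 3 genes most correlated with Hes1 and Atoh1. Markers of cell types (Muc2, Clca1, Fcgbp, Tff3, Zg16, Chga, Cck, Scg2, Gcg, Pyy, Pcsk1, Ang4, Lyz1, Mmp7, Gnat3, Dclk1 and the 5 stem cell markers) and Sox4 were named after their values were seen.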

Additional observations from a re-analysis of the deposited data

Results flagged for a closer look

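Of the 33 members and list genes named by the rule and tested in the interaction, 6 had DDX5ΔIEC libraries on opposite sides of both controls in the colon and the ileum, and Sox4 was 1 more among the 44 list genes that the rule did not name. This makes 7 of the 77 members and list genes tested, or 9.09%, against 677 of all 16178 genes tested, or 4.18%, which is given with no test. The values are the differences of the log2 genotype effects, ileum minus colon, and none passed edgeR's Benjamini-Hochberg adjusted threshold. Bhlha15 (1.76, unadjusted p = 9.7e-05, adjusted p = 0.386), Foxa3 (0.76, unadjusted p = 0.00262, adjusted p = 0.935), Neurog3 (1.83, unadjusted p = 0.0203, adjusted p = 1.0), Spdef (0.63, unadjusted p = 0.0177, adjusted p = 1.0) and the glycosyltransferase Rfng (0.55, unadjusted p = 0.0129, adjusted p = 1.0) were lower in DDX5ΔIEC colon and higher in DDX5ΔIEC ileum by edgeR's quasi-likelihood fit. Isl1 went the other way (-1.43, unadjusted p = 0.0366, edgeR adjusted p = 1.0).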

How the results depend on the processing

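With 2 libraries per group, values of members near 0 turned when 1 library was left out. In the colon genotype comparison these were Dll1 (log2 fold change -0.26 to 0.28), Dll4 (-0.35 to 0.05), Hes1 (-0.14 to 0.33) and Notch1 (-0.19 to 0.05). In the ileum they were Atoh1 (-0.11 to 0.20), Dll4 (-0.27 to 0.10), Gfi1 (-0.42 to 0.13), Notch1 (-0.50 to 0.01) and Notch2 (-0.20 to 0.10). Atoh1 turned in the DDX5ΔIEC tissue comparison (-0.29 to 0.02), and Dll1 (-0.03 to 0.51), Dll4 (-0.16 to 0.26), Jag1 (-0.04 to 0.25) and Notch1 (-0.41 to 0.09) did in the interaction. None of these had been called.

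Counts past the study's criterion with 1 library left out were 1 to 3 members, 4 to 7 Notch pathway genes and 3 to 9 secretory genes in the colon, and 1 to 2, 0 to 6 and 4 to 9 in the ileum. In the colon, 0 to 1 Notch pathway genes passed the adjusted threshold. In the WTIEC tissue comparison, 4 to 6 members (6 without WTIEC ileum replicate 2, 5 without WTIEC colon replicate 1, and 4 without WTIEC ileum replicate 1 or WTIEC colon replicate 2) and 13 to 16 Notch pathway genes did; a lone library was assumed to vary like the others, and fewer samples remained.

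Without the replicate block, 1 member passed the criterion in each tissue, as with it, and 0 were called. Secretory genes past the criterion then numbered 7 in the colon and 6 in the ileum. Deviations of same-numbered WTIEC and DDX5ΔIEC libraries correlated at 0.027 in the colon and 0.272 in the ileum. Whether equal replicate numbers mark the study's littermate pairs is not stated in the labels. The mouse as a replicate block left 8 and 5 members called between tissues. DESeq2 with the block gave 1 Notch pathway gene and 2 secretory genes past the criterion in the colon, 0 members, 1 and 2 in the ileum, and 1 Notch pathway gene at the adjusted threshold in the colon. DESeq2 without the block called 1 member, 1 Notch pathway gene and 2 secretory genes in the colon at the adjusted threshold; in the ileum 0 members, 1 Notch pathway gene and 3 secretory genes passed the criterion. With no filter on low counts, 1 Notch pathway gene and 3 secretory genes were called in the ileum, 1 Notch pathway gene passed the criterion there, and the interaction called 1 gene of each list; DESeq2 called 1 secretory gene in the interaction. The cause of these changes was not tested. With no filter the median of all genes moved to 0.172 in the WTIEC tissue comparison.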
